A study of Mus musculus with 20 samples.

Results

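The genes described here encode sarcomeric and smooth muscle actins (Acta1, Actc1, Acta2), the muscle creatine kinases (Ckm, Ckmt2), and structural proteins that anchor or span the contractile filaments (Actn2, Actn3, Des, Neb, Ttn). The members are all ATAC-seq peaks in 20 deposited peak lists that lie within 10 kb of the GRCm38 span of these 10 genes. Peaks of different libraries that shared at least 1 bp were merged into regions, which gave 66 elements of 101352 regions in all, around 10 of 21627 protein-coding genes. The genes were chosen by function and with earlier results of these data known, among them the gene-end peaks of Acta1, Actc1 and Ckm, which were listed mostly in wild type libraries (8 WT and 1 KO for Acta1, 6 and 0 for Actc1, 5 and 0 for Ckm). The calls by genotype at those gene ends are therefore described without a test.

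The libraries come from C2C12, an immortalised mouse myoblast line that stops dividing and fuses into myotubes when it differentiates. The cells were wild type (WT) or lacked Setd2 (KO), the gene of the methyltransferase that places the histone mark H3K36me3, and they were profiled at day 0 (D0), day 1 (D1) and day 5 (D5). The D1 and D5 cells were kept either in a control medium (CTL) or with methionine restricted (MR), written D1 CTL, D1 MR and so on below, whereas D0 carries no medium label. Each of the 10 groups has 2 libraries, which are replicates 1 and 2 of WT, and lines 1 and 2 of KO with 1 library per line. The same KO lines recur in every KO group, and the labels name neither how the lines were made nor whether each is a single clone.

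ATAC-seq marks DNA that a transposase can reach, which in most cells means promoters, enhancers and other sites with few nucleosomes. In striated muscle, actin monomers form the thin filament, α-actinin crosslinks thin filaments at the Z-disc, nebulin runs along the thin filament, titin spans from the Z-disc to the middle of the sarcomere, and desmin filaments tie neighbouring Z-discs together. The muscle creatine kinases regenerate ATP beside the filaments and in mitochondria. Many of these genes are switched on as myoblasts differentiate, and the promoters of actin genes are known for CArG boxes bound by serum response factor, while E-boxes (CANNTG) are bound by the myogenic factors and MEF2 sites by the MEF2 proteins.

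The promoters whose peaks carry most of the findings are shown first, as the 250 bases before the transcript start in the RefSeq promoter table (GRCm38.p6), 5′ to 3′ on the gene's strand. Capitals mark matches, on either strand, to the CArG box, the MEF2 site, CANNTG and CATTCC (the core of the TEAD site). Of the 10 genes, 8 had a promoter entry. The Acta2 entry is not used, because 212 of its 250 bases lie inside the gene span; in those of Ttn and Ckmt2, 10 and 38 bases do, and in the other 5 none. The Acta1 window is chr8:123894776-123895025 on the minus strand, and all 250 bases lie inside the element at the gene start. The Actc1 window is chr2:114052876-114053125 on the minus strand, with 113 bases inside the start element. The Ckm window is chr7:19410844-19411093 on the plus strand, with 207 bases inside the start element. The Des window is chr1:75360042-75360291 on the plus strand, with 174 bases inside the start element. The Ttn window is chr2:76982548-76982797 on the minus strand, with 250 bases inside the start element.
Acta1: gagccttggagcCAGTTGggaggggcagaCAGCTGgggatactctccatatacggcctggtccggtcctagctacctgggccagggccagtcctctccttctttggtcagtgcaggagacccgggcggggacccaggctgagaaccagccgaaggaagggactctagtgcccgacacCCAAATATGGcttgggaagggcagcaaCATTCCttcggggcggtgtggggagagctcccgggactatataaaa
Actc1: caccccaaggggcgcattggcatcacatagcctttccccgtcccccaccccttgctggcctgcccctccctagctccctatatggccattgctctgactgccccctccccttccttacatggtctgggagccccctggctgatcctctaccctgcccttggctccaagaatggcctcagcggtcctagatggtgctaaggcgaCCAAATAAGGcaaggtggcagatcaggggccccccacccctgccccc
Ckm: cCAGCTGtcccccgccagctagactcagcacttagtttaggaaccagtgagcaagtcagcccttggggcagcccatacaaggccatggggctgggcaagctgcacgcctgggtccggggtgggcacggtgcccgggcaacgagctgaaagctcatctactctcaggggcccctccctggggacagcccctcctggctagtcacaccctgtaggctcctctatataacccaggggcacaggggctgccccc
Des: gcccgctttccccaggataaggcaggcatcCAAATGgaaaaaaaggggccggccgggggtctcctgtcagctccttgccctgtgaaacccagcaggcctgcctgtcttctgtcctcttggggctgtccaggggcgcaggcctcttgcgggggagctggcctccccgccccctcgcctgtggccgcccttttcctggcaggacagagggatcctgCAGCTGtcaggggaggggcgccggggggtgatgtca
Ttn: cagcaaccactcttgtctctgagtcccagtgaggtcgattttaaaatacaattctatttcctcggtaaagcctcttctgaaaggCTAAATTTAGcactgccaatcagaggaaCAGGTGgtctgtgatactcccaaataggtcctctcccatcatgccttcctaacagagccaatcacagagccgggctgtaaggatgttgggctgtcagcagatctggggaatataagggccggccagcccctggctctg

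Of the 7 members used, Acta1 and Actc1 had a CArG box in this window. The match in Acta1, CCAAATATGG, lies 73 to 64 bases before the start, and that in Actc1, CCAAATAAGG, 47 to 38 bases before it. Of 32851 promoters of this length, 1.467% hold such a match. Of the 7, the Ttn window alone held a MEF2 site, CTAAATTTAG, at 166 to 157 bases before the start, against 2.919% of all promoters. CATTCC was found in Acta1, against 12.64% of all promoters. CANNTG, which also takes in every CAGCTG, was found in 6 of 7 members against 66.22% of promoters, and CAGCTG in 4 of 7 against 13%. A match describes letters in this window and not a bound site.

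The 20 lists hold 644 to 69881 peaks. The lists of KO line 1 at D5 are the shortest, with 644 peaks in CTL and 1881 in MR, and tests were made on the other 18, which hold 20847 to 69881. A peak within 1 kb of a Setd2 gene end was listed in 18 libraries, all except those 2, so the lists do not check the knockout. Of 6 muscle lineage genes chosen as markers, Cdh15 and Chrna1 had a gene-end peak in all 18 libraries and Myod1 and Itga7 in 17, while Myf5 and Pax7 had none. Of 8 markers of other cell types (Ptprc, Cdh5, Kdr, Adipoq, Alb, Rbfox3, Myh11 and Cd3e), 7 had no gene-end peak in any library. The exception was Myh11, a smooth muscle myosin, with a peak in 6 WT and 0 KO libraries. Of all protein-coding genes, 25.7% had a gene-end peak in all 18 libraries and 42.2% had none.

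The elements were spread unevenly over the 10 genes. Acta2 had 11, Acta1 10, Des and Neb 9 each, Actc1 7, Actn3 6, Actn2 and Ttn 5 each, and Ckm 4. Ckmt2, the mitochondrial creatine kinase of striated muscle, had no peak within 10 kb in any list. A missing peak is not evidence of closed chromatin, since Actg1, a cytoplasmic actin gene used in most cells, also had no gene-end peak in any list. By position, 19 elements lay within 1 kb of an end of their gene, 24 inside the gene and 23 in the flanks. Gene-end elements had a median length of 401 bp, intragenic ones 186 bp and flanking ones 181 bp, against 172 bp for all regions. The element farthest from its gene inside the window, 8.05 kb from Acta1, was called in 9 WT and 2 KO libraries, and the nearest region outside it, 10.08 kb from Acta2, in 1 and 4.

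**Figure D1:**
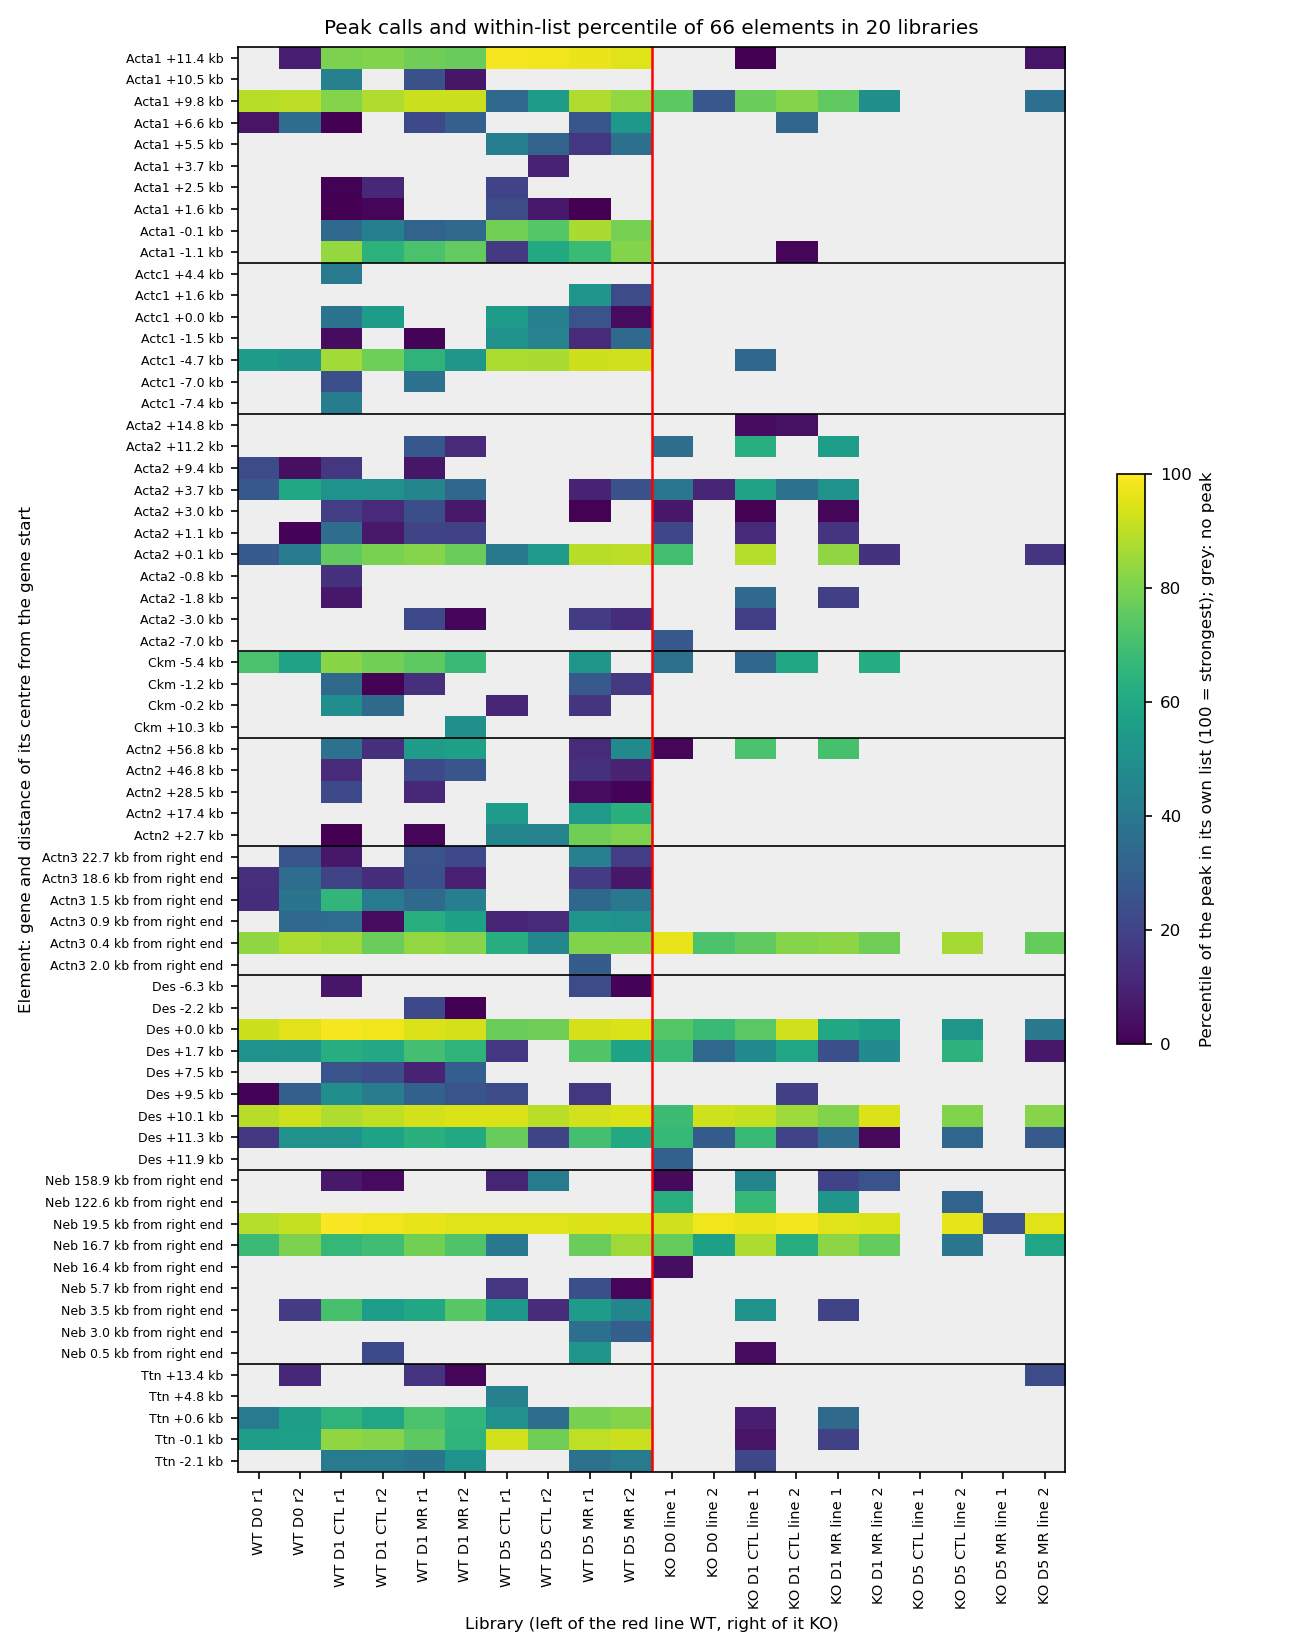
Every element (rows, by gene, with the distance of its centre from the gene start, or from the right-hand gene end for Neb and Actn3, whose strand the tables used here do not give) in each of 20 libraries (columns). Colour is the percentile of the peak within its own list, ordered by the authors' −log10 p (100 is the strongest peak), and grey means no peak; the elements of Acta1, Actc1 and Ckm are mostly coloured on the WT side, and the Des start and a Neb intragenic element on both sides.

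Across the 66 elements, WT libraries listed more than KO libraries, and the WT lists of D1 held more than those of D0. An element counts as called where the list holds a peak that overlaps it by at least 1 bp. At D0 the WT libraries called 19 and 25 elements, and the KO libraries 20 (line 1) and 9 (line 2). In D1 CTL, WT called 47 and 34 and KO 27 and 14. In D1 MR, WT called 41 and 36 and KO 20 and 11. In D5 CTL, WT called 29 and 22, and KO line 2 called 8. In D5 MR, WT called 44 and 37 and KO line 2 called 11. KO line 1 at D5 called 0 in CTL and 1 in MR. KO line 2 was below both WT libraries in each of the 5 conditions, and line 1 was below both at D1 but lay between the WT libraries at D0.

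List length differs between libraries, so each share is read beside the share of all regions called in the same list. In WT in D5 CTL, 43.9% and 33.3% of elements were called against 21.0% and 19.6% of all regions. In KO line 2 in D5 CTL, 12.1% of elements were called against 28.7% of all regions. The share of elements was below that of all regions in all 8 KO libraries outside line 1 at D5, and above it in both WT libraries of D1 CTL, D5 CTL and D5 MR. In the WT libraries of D0 and of D1 MR it was below. Averaged over the 5 conditions, the share of elements called differed by −29.5 percentage points (KO minus WT), where the pooled SD between the libraries of a group was 10.0 points and the share of all regions differed by −4.89 points. Restricted to the 20000 strongest peaks of each list, the difference was −12.4 points for the elements and 0.15 for all regions, and without KO line 2 it was −17.2 and 4.62 points. Leaving out the 7 gene-end elements of Acta1, Actc1 and Ckm, which were known when the genes were chosen, it was −28.0 points over the other 59. In bulk libraries, fewer cells with an open element and less opening per cell cannot be told apart.

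**Figure D2:**
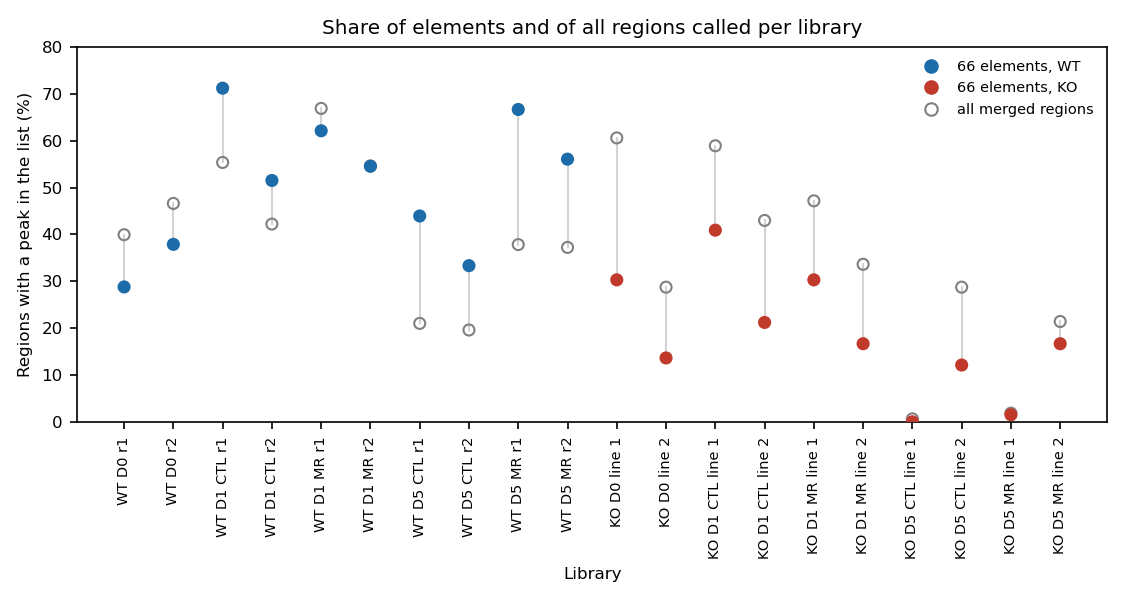
Percent of the 66 elements (filled, blue WT, red KO) and of all merged regions (open) with a peak in each library. WT libraries in D5 CTL lie at 43.9% and 33.3% for the elements against 21.0% and 19.6% for all regions, whereas every KO library has the filled point at or below the open one.

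Of the 66 elements, 32 were called in WT and in no KO library, against 21.8% of all regions, and 5 were called in KO and in no WT library, against 20.1%. Of the 59 elements other than the gene ends of Acta1, Actc1 and Ckm, these were 26 and 5. Among the elements called in WT alone were 6 of 10 at Acta1, 6 of 7 at Actc1, 4 of 5 at Actn2, 5 of 6 at Actn3 and 3 of 4 at Ckm. The counts at Acta1, Actc1 and Ckm include gene-end elements, whose calls by genotype were known when the genes were chosen. At Ckm, only the element 1.17 kb upstream is not one of these. Acta2, Des, Neb and Ttn had 2 of 11, 3 of 9, 2 of 9 and 1 of 5. The 5 elements seen in KO alone belong to Acta2, Neb and Des, and each was called in 1 to 4 libraries.

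Acta1 encodes the actin of adult skeletal muscle thin filaments. The element at its start (chr8:123894659-123895067), whose sequence is shown above, was called in 8 of 10 WT libraries and in no KO library. It was absent from both WT D0 libraries and present in all WT libraries of D1 and D5. Its percentile within the list was 34.0 and 43.3 in D1 CTL and 31.9 and 34.5 in D1 MR. At D5 it was 78.6 and 73.8 in CTL, and 87.3 and 79.7 in MR. The D5 and D1 values of WT did not overlap. Percentiles come from lists of different length and are given as a description. In the regions between 10 kb and 1 Mb from Acta1, 52.3% were called per WT library. The share was 45.3% per library of KO line 1 at D0 and D1 and 36.3% per library of line 2. Over all regions the shares were 42.1%, 55.6% and 31.1%, so calls around Acta1 were also fewer in KO line 1 than in WT.

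The next element upstream (chr8:123895343-123896313) also lies within 1 kb of an end of Nup133, a nuclear pore gene. It was called in the same 8 WT libraries and in KO line 2 in D1 CTL, where its percentile was 1.76. A pair of elements at the far end of the gene (chr8:123890984-123891188 and chr8:123892087-123892491) were called in 1 and 3 WT libraries and in no KO library. An intragenic element (chr8:123892766-123893576) was called in WT in D1 CTL (2 libraries), in D5 CTL (2) and in D5 MR (1).

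The downstream flank of Acta1 held elements with different time courses. The element 11.4 kb downstream of the start (chr8:123883102-123883711) was called in 1 WT library at D0, at percentile 8.55. At D1 its percentiles in WT were 80.3, 81.1, 78.4 and 76.7, and at D5 they were 98.5 and 98.0 in CTL and 96.9 and 95.3 in MR. In KO it was listed in line 1 in D1 CTL at percentile 0.358 and in line 2 in D5 MR at 5.65. The genotype difference had an unadjusted p of 0.0139 and an adjusted p of 0.0540 (exact stratified permutation test). By contrast, the element 9.78 kb downstream (chr8:123884759-123885239) was called in all 10 WT libraries and 7 KO libraries, and the one 5.49 kb downstream (chr8:123889198-123889378) in all 4 WT libraries of D5 and nowhere else.

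Actc1 encodes cardiac α-actin, which embryonic skeletal muscle and differentiating myoblasts also make. The element over its start (chr2:114052712-114052988) was called in 6 WT libraries, 2 in D1 CTL and all 4 of D5, and in no KO library. It was absent from both WT libraries of D1 MR. Its percentiles were 38.2 and 55.4 in D1 CTL, 54.6 and 43.6 in D5 CTL, and 26.0 and 2.81 in D5 MR.

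The Actc1 element called in most libraries lay 4.72 kb upstream (chr2:114057339-114057850), and it is 1 of the elements whose calls by genotype passed the test. It was listed in all 10 WT libraries, at D0 included, and in 1 of 8 KO libraries, line 1 in D1 CTL (exact stratified permutation test, adjusted p = 0.0327). Its WT percentiles were 55.2 and 52.4 at D0, 86.2 and 77.8 in D1 CTL, 65.0 and 53.0 in D1 MR, 87.7 and 87.5 in D5 CTL, and 92.6 and 92.8 in D5 MR. The single KO peak stood at 33.2, below every WT value. The difference in the share of libraries called was −0.9, and −0.67 without KO line 2. In the regions between 10 kb and 1 Mb from Actc1, 35.7% were called per WT library, 51.9% per library of KO line 1 at D0 and D1, and 28% per library of KO line 2.

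Acta2 encodes smooth muscle α-actin, which myoblasts in culture also make. Its start element (chr19:34255235-34255739) was called in all 10 WT libraries and in 5 KO libraries, 3 of line 1 and 2 of line 2. In WT the percentiles were 28.7 and 41.1 at D0 and 75.5 to 82.0 at D1. At D5 they were 40.4 and 54.2 in CTL and 89.2 and 89.9 in MR. In KO line 1 they were 69.9 at D0, 88.7 in D1 CTL and 83.3 in D1 MR, each above both WT values of the same condition, and in line 2 they were 14.6 in D1 MR and 15.3 in D5 MR.

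A short element upstream of the start (chr19:34256341-34256392) was called in 1 WT library, and one at the other gene end (chr19:34240723-34240847), within 1 kb of an end of Stambpl1, in 0 WT and 2 KO libraries. The KO lines differed from each other at this gene. KO libraries of line 1 called 9 of the 11 Acta2 elements and those of line 2 called 3. An element 1.10 kb downstream of the start (chr19:34254205-34254756) was called in all 3 line 1 libraries of D0 and D1 and in none of line 2. Its calls at D5 against D1 had an unadjusted p of 0.0401 and an adjusted p of 0.0801 (exact stratified permutation test). In KO that test sets lines 1 and 2 at D1 against line 2 alone at D5, so day and line are mixed there. The difference in the share of libraries called went from −0.75 to −0.5 without KO line 1. In the regions between 10 kb and 1 Mb from Acta2, 33.4% were called per WT library, 70.5% per library of KO line 1 at D0 and D1, and 40.0% per library of line 2, against 42.1%, 55.6% and 31.1% over all regions. The gene-end peak of Myh11 in 6 WT and 0 KO libraries stands beside these values; its part in them was not tested.

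Ckm encodes the cytosolic muscle creatine kinase. Its start element (chr7:19410758-19411050) was called in 4 WT libraries, 2 in D1 CTL at percentiles 49.1 and 34.6, 1 in D5 CTL at 10.3 and 1 in D5 MR at 15.6. No KO library and neither WT library of D1 MR listed it. The element 1.17 kb upstream (chr7:19409802-19410040) was called in 5 WT libraries, 2 in D1 CTL, 1 in D1 MR and 2 in D5 MR, and in no KO library. Its calls by genotype did not pass (exact stratified permutation test, p = 0.0278, adjusted p = 0.0681).

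The Ckm element called in most libraries lay farther out, 5.44 kb upstream (chr7:19405584-19405727), and was present in WT at D0 at percentiles 71.3 and 57.5. It was called in all 6 WT libraries of D0 and D1 but in 1 of 4 at D5, and in 4 KO libraries, all of D0 and D1. Its D5 against D1 difference had an unadjusted p of 0.0370 and an adjusted p of 0.0801 (exact stratified permutation test). An element at the other gene end (chr7:19421396-19421468) was called in a single WT library of D1 MR.

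**Figure D3:**
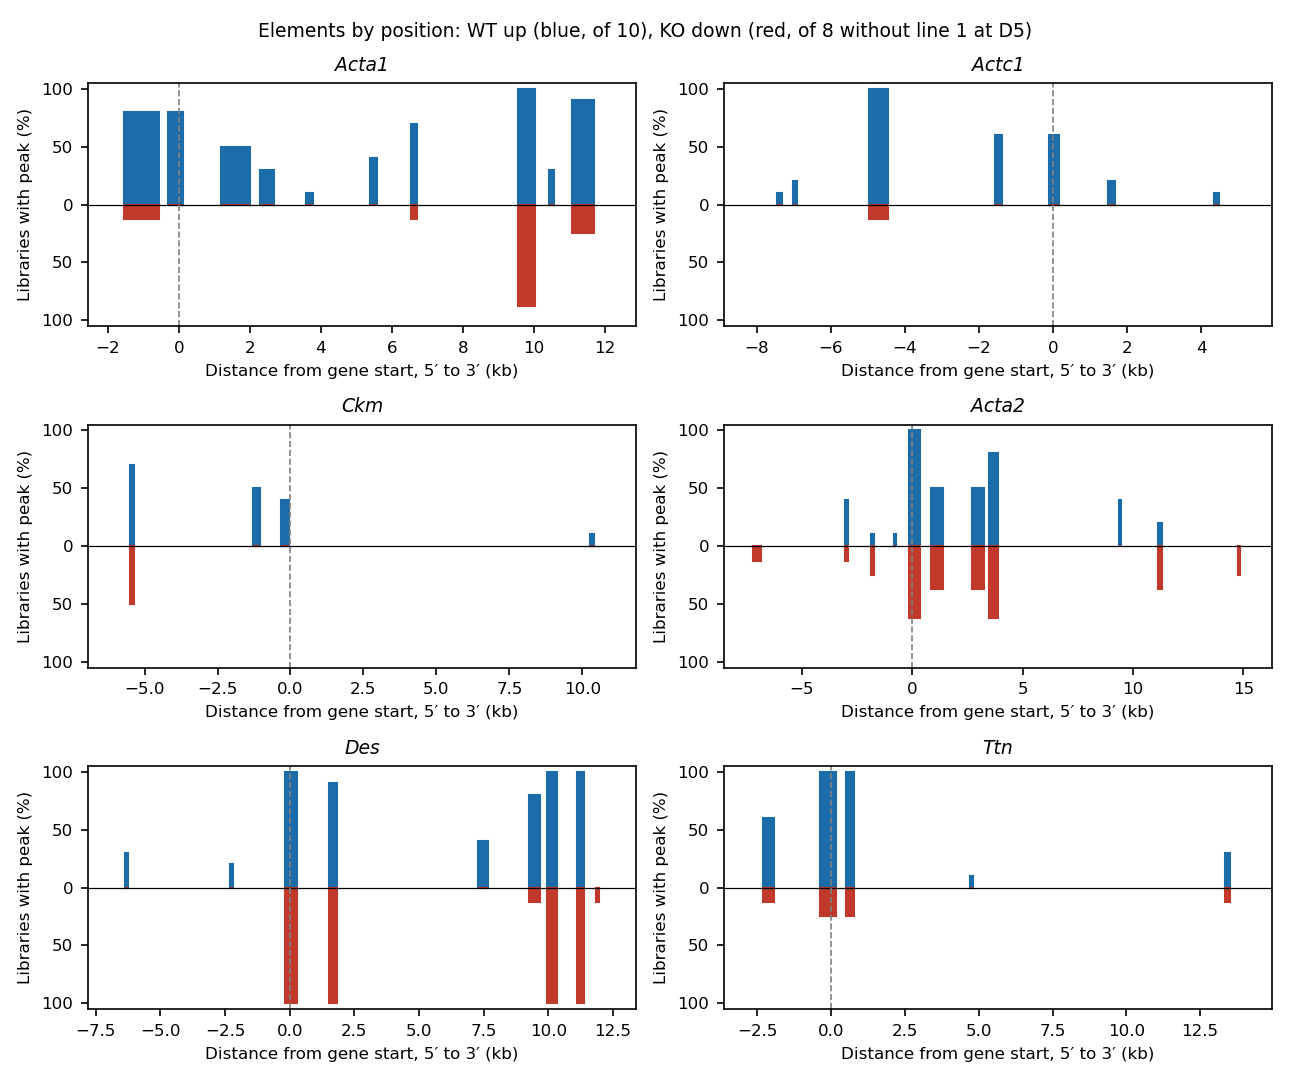
Elements of 6 genes by distance of their centre from the gene start (kb, dashed line at 0), with the percent of the 10 WT libraries that called each one drawn upward in blue and the percent of 8 KO libraries (without line 1 at D5) downward in red; the shortest elements are drawn wider than they are. Bars at the starts of Acta1, Actc1 and Ckm point up alone, those at the Des start reach 100% in both directions, and the 2 at the Ttn start reach 100% in WT.

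Actn2 and Actn3 encode the sarcomeric α-actinins of the Z-disc, Actn3 that of fast fibres. Actn2 had no element within 1 kb of either end, and its 5 elements were intragenic. The one nearest its start, 2.74 kb downstream (chr13:12337827-12338158), was called in 6 WT libraries and no KO library. Its calls by genotype did not pass (exact stratified permutation test, p = 0.0278, adjusted p = 0.0681). Its percentiles were 0.220 and 1.51 in the 2 WT libraries of D1 that listed it, 45.8 and 44.8 in D5 CTL, and 78.5 and 80.7 in D5 MR. D5 lay above D1 in each medium. The element farthest from the start, 56.8 kb downstream (chr13:12283845-12284092), was called in 6 WT libraries and in all 3 line 1 libraries of D0 and D1, and in none of line 2.

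At Actn3, 3 elements were called less often in KO and passed the test. One lies at a gene end (chr19:4876846-4877248), and was called in 9 WT and 0 of 8 KO libraries. The intragenic one beside it (chr19:4876246-4876519) and a flanking one that lies inside the neighbouring gene Ctsf (chr19:4859099-4859447) were each called in 8 WT and 0 KO libraries. Each had an adjusted p of 0.0327 in the exact stratified permutation test. Both of the latter were listed at D0, D1 and D5 MR and in neither WT library of D5 CTL. Their WT percentiles ran from 6.34 to 35.2 for the flanking element and from 12.9 to 65.8 for the intragenic one. Among the 20000 strongest peaks of each list, the difference in the share of libraries called went from −0.9 to −0.3 at the gene end (exact stratified permutation test, p = 0.444) and from −0.8 to 0 at the other two (p = 1 for each).

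In contrast, the Actn3 element that overlaps the end of Zdhhc24, a palmitoyltransferase gene (chr19:4877848-4878865), was called in all 18 libraries. It lies within 1 kb of an end of both genes and is not assigned to either here. Its percentile among the regions called in all 18 libraries was 10.4 points higher in KO, which did not pass (exact stratified permutation test, adjusted p = 0.260); it was 3.88 points without KO line 2 and 2.43 without the D5 libraries. In the regions between 10 kb and 1 Mb from Actn3, 58.3% were called per WT library, 62.1% per library of KO line 1 at D0 and D1, and 47.1% per library of line 2.

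Des encodes desmin, the intermediate filament protein of muscle, which is made already in myoblasts. Its start element (chr1:75360118-75360557) was called in all 18 libraries. Peak strength at this element was therefore compared as a percentile among the 11144 regions called in all 18 libraries, so that lists of different length could be compared over the same regions. In WT the values were 74.6 and 80.9 at D0, 94.2 and 91.8 in D1 CTL, 70.5 and 71.4 in D1 MR, 62.3 and 65.7 in D5 CTL, and 78.5 and 80.8 in D5 MR. In KO line 1 they were 16.4 at D0, 17.3 in D1 CTL and 11.7 in D1 MR, and in line 2 they were 39.3 at D0, 74.2 and 17.3 in D1 CTL and MR, and 19.5 and 20.1 in D5 CTL and MR. The WT libraries ranged from 62.3 to 94.2 with a median of 76.5, and the KO libraries from 11.7 to 74.2 with a median of 18.4. KO line 2 in D1 CTL, at 74.2, was the only KO library inside the WT range, and it was below both WT libraries of its own condition.

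At the Des start the difference was −51.5 percentile points (KO minus WT), with p = 0.000514, the smallest the 1944 arrangements allow, and an adjusted p of 0.00833 (exact stratified permutation test). Of the 5 elements in the common set, it alone passed, against 11% of all regions in the set that passed as lower and 11.2% as higher. Calls alone would not show it, since every one of the 18 lists had a peak there. The adjusted p was 0.158 without WT replicate 1, 0.155 without WT replicate 2, 0.132 without KO line 2, 0.0877 without the D5 libraries, and 0.0737 with the line and replicate number as a block, while the difference stayed between −43.0 and −65.4 points in these alternatives and without KO line 1, where the adjusted p was 0.0220.

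The other Des elements in the common set did not pass. The element 10.1 kb downstream of the start (chr1:75370221-75370634) differed by −15.8 points (KO minus WT, exact stratified permutation test, adjusted p = 0.170), and the one 11.3 kb downstream (chr1:75371413-75371673) by −8.09 points (adjusted p = 0.535). The first was −4.89 points without KO line 1 and −30.6 without line 2, and the second −3.24 without WT replicate 1, −12.95 without WT replicate 2, 0.87 without KO line 2 and −1.06 without the D5 libraries. Of the 2 elements at the far end of the gene, 1 (chr1:75367577-75367974) was called in the 4 WT libraries of D1 and nowhere else. The other (chr1:75369558-75369958) was called in 8 WT libraries and in KO line 2 in D1 CTL, with an unadjusted p of 0.0216 and an adjusted p of 0.0681 (exact stratified permutation test).

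**Figure D4:**
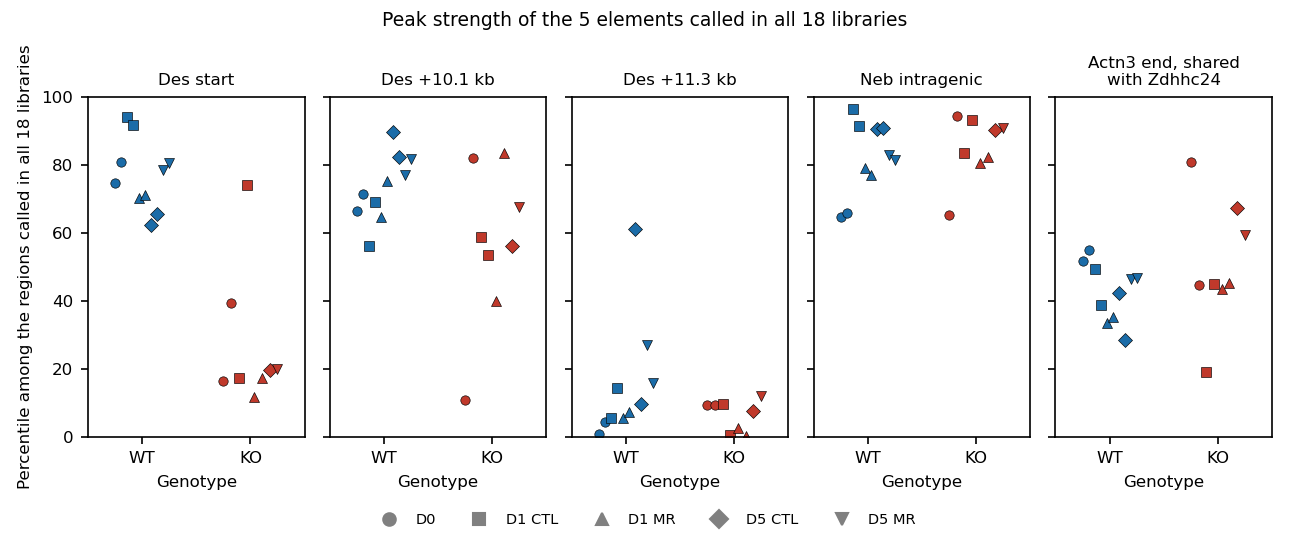
Percentile of the 5 elements called in all 18 libraries among the 11144 regions called in all of them (100 is the strongest), 1 point per library, WT blue and KO red, with a symbol for each day and medium. At the Des start the WT points lie between 62.3 and 94.2 and the KO points between 11.7 and 74.2. There KO line 2 in D1 CTL is the only KO point inside the WT range. In the other panels the groups overlap as well.

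Neb encodes nebulin, the ruler-like protein of the thin filament. Its element called in most libraries was intragenic (chr2:52318998-52319679) and was listed in 19 of 20 libraries, all except KO line 1 in D5 CTL. Its WT percentiles within the list were 88.8 to 99.3. In the common set it was 4.07 points higher in KO (exact stratified permutation test, adjusted p = 0.426), and 8.18 points higher without KO line 1 but 2.80 lower without line 2. The element within 1 kb of a gene end (chr2:52339237-52339387) was called in 2 WT libraries and 1 KO library.

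A further Neb element (chr2:52216065-52216251) was the only one with more calls in KO at an unadjusted p under 0.05. It was called in no WT library and in 4 KO libraries, 3 of line 1 at percentiles 63.3, 67.0 and 52.1 and 1 of line 2 in D5 CTL at 32.2 (exact stratified permutation test, p = 0.0417, adjusted p = 0.0881). The element 3.50 kb inside the right-hand gene end (chr2:52335224-52335372) was called in 9 WT libraries and in 2 libraries of KO line 1, with an adjusted p of 0.0540 in the same test. The common-set value of the element listed in 19 libraries differed by −7.74 points (MR minus CTL, exact stratified permutation test, p = 0.00926, adjusted p = 0.128).

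Ttn encodes titin, which spans from the Z-disc to the M-band. Both elements at its start were called less often in KO and passed the test. The one over the start (chr2:76982375-76982945) and the one 0.64 kb downstream (chr2:76981787-76982046) were each called in all 10 WT libraries and in 2 KO libraries, line 1 in D1 CTL and in MR, and in none of the 5 libraries of line 2 (exact stratified permutation test, adjusted p = 0.0403 for each). Over the start the WT percentiles were 56.0 and 56.3 at D0, 83.4 and 81.7 in D1 CTL, 75.4 and 64.9 in D1 MR, 93.3 and 78.4 in D5 CTL, and 90.4 and 91.8 in D5 MR. The KO peaks stood at 5.30 and 19.4, below every WT value. The authors' fold enrichment there ran from 4.48 to 8.08 in WT and was 2.93 and 3.73 in KO. For both start elements the difference in the share of libraries called went from −0.8 to −0.33 without KO line 2.

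The Ttn element 2.13 kb upstream of the start (chr2:76984490-76984878) was called in 6 WT libraries, at D1 in both media and in D5 MR, and in KO line 1 in D1 CTL. The genotype difference did not pass (exact stratified permutation test, p = 0.0278, adjusted p = 0.0681). In WT its percentiles lay between 37.9 and 51.3, and in KO it was at 21.6. In the regions between 10 kb and 1 Mb from Ttn, 48.7% were called per WT library, 41.8% per library of KO line 1 at D0 and D1, and 25.3% per library of line 2. The Ttn start was listed in WT already at D0, whereas the Acta1 and Actc1 starts were first listed at D1.

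The genotype comparison sets the KO libraries against the WT libraries within each condition. With 2 KO lines, loss of Setd2 cannot be told apart from other differences between these lines and the WT cells. Of the 59 elements other than the gene ends of Acta1, Actc1 and Ckm, 22 had calls that could pass the exact stratified permutation test. Of those, 6 passed as called less often in KO and 0 as called more often, where 6.86% and 4.63% of all 19646 testable regions did so. They are the upstream Actc1 element, the 3 of Actn3 and the 2 of Ttn. The testable elements include flanking ones of Acta1, Actc1 and Ckm, genes chosen with their gene-end calls known. These flanking elements may not be independent of that choice. At an unadjusted p under 0.05, 16 elements were lower and 1 was higher, against 33.2% and 14.1% of the regions. Among the 20000 strongest peaks of each list 4 of 8 testable elements passed, against 28% of testable regions. The 6 became 0 without WT replicate 1, 0 without WT replicate 2 and 0 where a peak had to cover 50% of an element. In these settings 0% of the regions passed as well. Without KO line 2, 4 of 4 testable elements passed (3 lower and 1 higher, where 75.2% of testable regions passed). They were 2 of the 3 Actn3 elements (the intragenic and the flanking one), a Des element at the far end of the gene, and the Neb element with more calls in KO. The gene-end Actn3 element, the upstream Actc1 element and both Ttn elements could not be tested there. Their differences in the share of libraries called were −0.83, −0.67 and, for each Ttn element, −0.33.

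Within single conditions, 2 libraries against 2 cannot give an exact p under 0.333, so elements called in both libraries of a group and neither of the other are counted. At D0, 8 elements were listed in both WT and neither KO library and 0 the other way round, against 3.77% and 1.77% of all regions. In D1 CTL the counts were 10 and 1, against 5.06% and 4.25%, and in D1 MR 17 and 1, against 13.9% and 1.26%. Of these, 8, 6 and 15 WT elements were other than the gene ends of Acta1, Actc1 and Ckm. Among the 20000 strongest peaks of each list the WT counts over all elements were 0, 5 and 2, against 1.91%, 2.46% and 2.58% of all regions. At D5, with KO line 2 alone, 16 elements were in both WT libraries and not in line 2 in CTL (background 3.72%) and 27 in MR (15.7%), and 1 was in line 2 alone in each medium (12.3% and 2.78%). These D5 counts are over all 66 elements. They include gene ends of Acta1 and Actc1, whose calls by genotype were known when the genes were chosen.

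The day comparison follows the elements as the cells differentiate. In WT, 12 elements were listed in both libraries of D1 CTL and neither of D0, against 4.69% of all regions, and 0 were lost, against 1.66%. In WT D1 MR, 11 were gained over D0 and 0 lost, against 10.5% and 0.967%. In KO, 1 element was gained from D0 to D1 CTL (1.44%) and 0 were lost (0.266%). Of these gains in WT D1 CTL, WT D1 MR and KO, 7, 9 and 1 were among the 59 elements other than the gene ends of Acta1, Actc1 and Ckm. Among the 20000 strongest peaks the WT D1 CTL gain was 4, against 1.67% of regions. In all, 36 elements were absent from WT at D0 and listed in some later WT library, against 30.9% of regions, and 18 of them were listed at both D1 and D5, against 5.86%. The latter include the starts of Acta1, Actc1 and Ckm and 4 of the 5 Actn2 elements. A set of 8 elements was listed in WT at D5 alone, against 2.15% of regions, of which 2 belong to Acta1, 2 to Neb, and 1 each to Actc1, Actn2, Actn3 and Ttn. Without the gene ends of Acta1, Actc1 and Ckm, the 36, 18 and 8 elements were 29, 13 and 7 of 59.

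From D0 to D5, 8 elements were gained and 6 lost in WT in CTL, against 0.860% and 17.4% of all regions, and 17 were gained and 1 lost in MR, against 4.02% and 7.49%. From D1 to D5 in WT, 1 was gained and 10 lost in CTL, against 0.237% and 19%, and 7 were gained and 6 lost in MR, against 1.21% and 15.7%. Without the gene ends of Acta1, Actc1 and Ckm, the gains from D0 to D5 were 5 in CTL and 14 in MR, and those from D1 to D5 were 1 and 6. Across both genotypes and media, 5 elements could be tested for D5 against D1 by their calls, and 0 passed, against 0% of the regions. In KO, lines 1 and 2 at D1 stand against line 2 alone at D5, so day and line cannot be told apart there. At an unadjusted p under 0.05, 2 were lower, against 50.1%, and 0 higher, against 0.014% (exact stratified permutation test). In the common set 0 of 5 elements passed for D5 against D1 in the exact stratified permutation test, against 3.10% of regions higher and 3.31% lower; 1, the Des element 11.3 kb downstream of the start, was at an unadjusted p under 0.05 (0.0216, 13.5 points higher at D5, adjusted p = 0.115). Without WT replicate 1 the difference at that element was 4.24 points (exact stratified permutation test, p = 0.222).

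The medium comparison asks whether methionine restriction shifts the same elements. In WT at D1, 4 elements were gained and 5 lost in MR against CTL, where 7.73% and 1.33% of all regions were. The lost ones include the starts of Actc1 and Ckm, which 2 of 2 CTL libraries and 0 of 2 MR libraries listed. Of the 59 elements other than the gene ends of Acta1, Actc1 and Ckm, 4 were gained and 2 lost. In WT at D5, 14 were gained and 1 was lost, against 11.9% and 0.211%. Among the 20000 strongest peaks the D5 gain was 0 (2.17% of regions) and the D1 loss 1 (1.76%). In KO at D1, 0 were gained and 1 was lost, against 0.253% and 2.74%.

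Only 2 elements, in Acta2 and Neb, could be tested for MR against CTL over all groups, and 0 passed or reached an unadjusted p under 0.05, against 0% of regions adjusted and 9.54% higher and 0.651% lower unadjusted (exact stratified permutation test). In the common set 0 of 5 passed, as did 0% of the regions, and 1 had an unadjusted p under 0.05, the Neb element given above. The smallest p this comparison allows is 0.00463.

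Gene-end calls place these genes beside other sarcomere genes. A gene-end call is any peak within 1 kb of either end of the gene, and it is compared here over the 18 libraries, averaged over the 5 conditions. Of the 7 genes other than Acta1, Actc1 and Ckm, 3 had a larger share of libraries called in WT and 0 a smaller one, where 19.4% and 9.54% of all protein-coding genes did. In the exact permutation test of gene-end calls 1 of the 7, Ttn, could pass. It had p = 0.00463 and an adjusted p of 0.0635, where 2.08% of 1631 testable genes passed as lower and 1.10% as higher, and 30.7% and 6.38% had an unadjusted p under 0.05 (exact stratified permutation test).

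In a list of 44 further Z-disc, thin filament, M-band and chaperone genes, 27 had a larger share of the 18 libraries called in WT and 1 in KO (Cap2, named after its values were seen). Of all protein-coding genes, 19.4% and 9.54% did. Of the 44, 8 were called in all 18 libraries and 8 in none, against 25.7% and 42.2% of all protein-coding genes. Of 13 testable genes, 3 were lower in KO after adjustment and 0 higher, against 2.08% and 1.10% of all testable genes. These were Obsl1, an obscurin-like protein of the M-band, Pdlim3, a Z-disc LIM protein, and Unc45b, the myosin chaperone, each with 10 WT calls and 1 KO call (exact stratified permutation test, adjusted p = 0.0484).

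Of 9 relatives of the members that other cells use, 6 had the same share of libraries called in WT and KO. So did 15362 of all 21627 protein-coding genes. A larger share was called in KO for 3 (Actg2, Actn4 and Ckb) and in WT for 0, against 9.54% and 19.4%. Actb, Actn1 and Vim had a gene-end peak in all 18 libraries and Ckb in 17, and Actg1, Ckmt1 and Nebl in none. Actn4 was called in 7 WT and 7 KO libraries, and Actg2 in 0 and 1. Of all protein-coding genes, 25.7% were called in all 18 and 42.2% in none. Among the factors that act through CArG boxes, Mrtfa was called in all 18, Mrtfb in 7 WT and 5 KO libraries, Myocd in 7 and 2, and Srf in none.

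Some genes shared the gene-end pattern of a member over the 20 libraries, by the fewest libraries in which the calls disagree. Actc1 shared all 20 calls with Rbm24, an RNA-binding protein of muscle, and with Art1, an ADP-ribosyltransferase gene. Acta1 differed in 1 library from Tnnc1, the slow and cardiac troponin C gene, and from Inha and Apobec2, among 7 genes with at most 1 mismatch. Ckm differed in 1 library from Asb10 and in 2 from Cldn5 and Plxnb3. Acta2 shared all 20 calls with 27 genes, the first being Disp2, Det1 and Mrps17, and Ttn with 1700013G24Rik alone. Neb, called in 3 libraries, differed in 2 from 74 genes, among them Espnl, H2al3 and Gm15455.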

How the data were processed

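ATAC-seq was done on C2C12 cells in 20 libraries, with an Active Motif kit and paired-end sequencing per the labels' protocols. The authors deposited 1 broadPeak list per library, on GRCm38 per the submitters' processing notes; the aligner, the filters and the peak caller are not given in the sources used here. The lists carry the authors' score, their fold enrichment (ratio) and their −log10 p-value and −log10 q-value for each peak, and no read counts, so the depth is unknown. The lowest deposited −log10 q-value was 1, and the score was 10 times that value.

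Peaks of all lists sharing at least 1 bp were merged (Python 3.11.15, pandas 2.3.3, numpy 2.4.6). Gene spans and promoters came from RefSeq. Members, lists and tests were chosen with earlier results of these data known. Groups came from the titles. Tests permuted labels exactly within strata (two-sided; 1944, 324 and 432 arrangements for genotype, day and medium) on 18 libraries, with Benjamini-Hochberg adjustment over all testable regions and a threshold of 0.05; D1 against D0 allows no p under 0.0556 and was counted. The code was tested on simulated data. P-values measure the spread between these libraries, which may be technical or lie between lines. The permutations treated libraries of the same line as independent, so the genotype p-values may be too small for 2 KO lines that recur in every condition. All 10 genes were described. Elements were named where at a gene end, called in most libraries of their gene, or past the threshold (otherwise at an unadjusted p under 0.05); others were named after their values were seen, as were the 1 Mb surroundings. The 3 genes of most like pattern had the fewest mismatching gene-end calls. KO libraries of a line come from the same cell line and deviated together (correlation 0.258 to 0.396 between conditions), while same-numbered WT and KO libraries share only a number. Alternatives covered peak thresholds, list length, overlap, all 20 libraries, blocks and left-out libraries.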

Additional observations from a re-analysis of the deposited data

Results flagged for a closer look

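In WT the MR minus CTL difference of 2 shared elements had opposite signs at D1 and D5, by their percentile among the regions called in all 18 libraries. At the Des start MR was at 70.5 and 71.4 against 94.2 and 91.8 in CTL at D1 (a difference of −22.0), and at 78.5 and 80.8 against 62.3 and 65.7 at D5 (15.6). The contrast between days was −37.69, and it was not tested. At the Actn3 element shared with Zdhhc24, MR was at 33.5 and 35.2 against 49.5 and 38.8 at D1 (−9.80), and at 46.5 and 46.7 against 42.4 and 28.5 at D5 (11.1), a contrast of −20.93 that was not tested.

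The same Des values give D5 minus D1 differences in WT of −29.0 in CTL and 8.69 in MR, a contrast of −37.69 that was not tested. At the Neb element listed in 19 libraries, D5 was at 90.7 and 91.1 against 96.6 and 91.4 at D1 in CTL (−3.10), and at 83.0 and 81.7 against 79.1 and 77.2 in MR (4.15), a contrast of −7.26 that was not tested.

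The Des element 11.3 kb downstream of the start had KO values of 9.31 and 9.33 against WT values of 0.682 and 4.35 at D0 (6.80), and 2.44 and 0.126 against 5.61 and 7.36 in D1 MR (−5.20). The contrast of 12 was not tested. These cases were picked from several pairs of comparisons by a rule. It asked that the libraries of the compared groups not overlap and that the differences have opposite signs. The agreement between the 2 libraries of a group therefore follows from the rule and is no support for these cases.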

How the results depend on the processing

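Genotype counts leave out the gene ends of Acta1, Actc1 and Ckm. With all 20 libraries, 9 of 21 testable elements passed for genotype in place of 6 of 22, against 18.8% of testable regions (11.5% with 18 libraries), and 3 of 4 for D5 against D1 in place of 0, against 66.2%. Requiring 50% of an element to be covered left 0 for genotype (0% of regions), and leaving out the D5 libraries left 2 of 6 (18.8%). Leaving out 1 replicate number or line at a time gave 0 to 7 elements for genotype (4 of 4 without KO line 2, where 75.2% of testable regions passed) and 0 to 1 for D5 against D1 (1 of 1 without KO line 1, where 90.1% passed). For the rank in the common set, the genotype count of 1 became 0 without the D5 libraries, and 0 to 1 with 1 replicate or line left out. The cause of these shifts was not tested, other than that fewer libraries allow fewer arrangements.

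With the replicate block, 6 of 7 testable elements passed for genotype, against 73.1% of testable regions; the D5 and MR counts were 0 with 0 testable elements, and the genotype count of ranks went from 1 to 0. The fit pairs lines and replicates by number only.

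The share difference was −12.4 points (KO minus WT) with the 20000 strongest peaks, against 0.15 for all regions, and ranged from −34.5 to −17.2 with 1 replicate or line left out. For D5 minus D1 it was −11.4 points, against −23.2 for all regions, and with the 20000 strongest peaks 6.44 against −0.11. For D1 CTL minus D0 it was 18.6 points against 5.89, and with the 20000 strongest peaks 6.82 against −0.026, where the WT gain of elements was 4 (1.67% of regions) in place of 12. The share without the 7 gene ends was chosen after seeing the data. MR against CTL without D5, and D5 against D1 calls without KO line 2, had no testable region. Peak lists hold no read depth, so a missing call cannot be separated from low depth.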
